A study of Homo sapiens with 12 samples.

Results

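The genes described here are 42 genes of the sarcomere and of the excitation and energy supply of muscle, with the troponin subunits left out. They were listed by name for what their proteins do, by a rule that uses no measured value, and are 42 of the 65975 gene identifiers in the table of expression values. The list was nevertheless chosen with earlier results of these data known. They comprise 7 myosin heavy chains, 6 myosin light chains, 4 genes of the thin filament, 8 of the Z disc and the intermediate filament, 6 of titin, the M band and the myosin-binding proteins, 7 of calcium handling and the surface membrane, and 4 of muscle energy supply.

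RNA was sequenced from 2 patient-derived rhabdomyosarcoma (RMS) cell lines, the fusion-negative line RD (FN-RMS), grown in DMEM, and the fusion-positive line Rh30 (FP-RMS), grown in RPMI. All cells carried a lentiviral shRNA and had been selected with puromycin, and the shRNA was either a Scrambled control (Scramble) or 1 shRNA against KDM3A (KDM3A-sh2), a histone lysine demethylase. There were 3 libraries in each of the 4 groups, 12 in all, and each RMS subtype was thus represented by 1 line and the knockdown by 1 shRNA. The question of the design is how depletion of KDM3A changes gene expression in each line. The sources used here do not state whether the 3 libraries of a group are separate cultures. The sample titles number them 1 to 3 in each group, while the column names of the 3 Rh30 Scramble libraries all end in 1, and p-values measure the spread between these libraries, which may be technical.

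Skeletal muscle contracts when myosin heads of the thick filament pull on actin of the thin filament. The filaments are anchored at the Z disc and the M band and held in register by titin and nebulin. Contraction starts when the ryanodine receptor releases calcium from the sarcoplasmic reticulum, where calsequestrin stores it, and ends when the calcium pump returns it. Myosins, actins and light chains come in forms that follow each other during development, from embryonic to adult, or that differ between fast, slow and cardiac muscle. RMS is a tumor of cells of the skeletal muscle lineage that start this programme and do not complete it.

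The values are FPKM, fragments per kilobase of exon, scaled to how many fragments a library had mapped, so that levels of different genes are compared per length. FPKM do not hold read numbers, and the step between the lowest values put the depth of the libraries at 0.863 to 1.19 of that of the median library. Each library held 17473 to 17983 genes with at least 1 FPKM. The targeted gene checked the labels. KDM3A was at 35.8, 33.9 and 30.9 FPKM with Scramble and at 12.0, 11.2 and 13.4 FPKM with KDM3A-sh2 in RD, and at 27.8, 29.2 and 32.0 and then 13.7, 13.2 and 15.4 FPKM in Rh30. The libraries of each line therefore did not overlap for KDM3A, which fell by 1.39 and 1.02 on the log2 scale (adjusted p = 5.00e-05 and 0.000348, limma). The drop was smaller in Rh30 than in RD, by 0.37 (SE 0.12, adjusted p = 0.0388, limma, interaction of shRNA and line).

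Both lines carried the skeletal muscle lineage. MYOD1, a master regulator of muscle fate, was at a mean of 134 ± 2.18 FPKM (SD, n = 3) in RD Scramble and 769.7 ± 70.3 FPKM in Rh30 Scramble, and MYOG, which drives differentiation, at 184 ± 9.77 and 691 ± 40.1 FPKM. With KDM3A-sh2 MYOD1 and MYOG were both lower in RD (-0.24 and -0.14 on the log2 scale) and both higher in Rh30 (0.28 and 0.56), each past the threshold of an adjusted p of 0.05. The drop of MYOG in RD passed only just (adjusted p = 0.049, limma; ratio of means 0.907). Of 7 lineage markers 4 were tested in RD, and the other 2 rose there, also only just. These were CHRNG (0.19, adjusted p = 0.0493, limma) and DES, a member (0.23, adjusted p = 0.0437, limma). Neither passed in Rh30 (0.080 and -0.12). MYF5 and MYF6, other factors of this family, were near 0, with group means of at most 0.234 FPKM. Of 10 cardiac markers 2 reached a mean of 1 FPKM in RD Scramble, NKX2-5 (15.9 FPKM) and HAND2 (1.76 FPKM). In Rh30 Scramble 5 did, NKX2-5 (14.7 FPKM), NPPB (14.6 FPKM), GATA4 (7.38 FPKM), HAND2 (3.03 FPKM) and TBX20 (1.46 FPKM). TBX5, MYL7, MYBPC3 and HAND1 were at or near 0.

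A member was counted as expressed if the mean of at least 1 of the 4 groups reached 1 FPKM. By this measure 36 of the 42 members were expressed, 6 were low and none was at 0 in all libraries. The low members were MYH1, MYH2 and MYH4, the adult fast myosin heavy chains, MYL3, the slow and ventricular essential light chain, MYBPC1, slow myosin-binding protein C, and CASQ1, the calsequestrin of fast muscle. None of these 6 had a group mean above 0.837 FPKM, the level of CASQ1 in Rh30 KDM3A-sh2. MYL3, MYBPC1 and ACTN3, the fast-fibre actinin, were listed at 0 in all 6 Rh30 libraries. In the control cells 34 members reached 1 FPKM in RD and 28 in Rh30, of which 26 did so in both lines. The 8 that reached it in RD Scramble only were MYH6, MYH7, MYH8, ACTN3, LDB3, MYOM1, CASQ2 and TRDN, and the 2 in Rh30 Scramble only were MYL2 and MYBPC2. CASQ2 and LDB3 lay just under the limit in Rh30, with means of 0.991 and 0.87 FPKM, and MYH6 (1.03 FPKM) and TRDN (1.08 FPKM) just above it in RD.

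**Figure D1:**
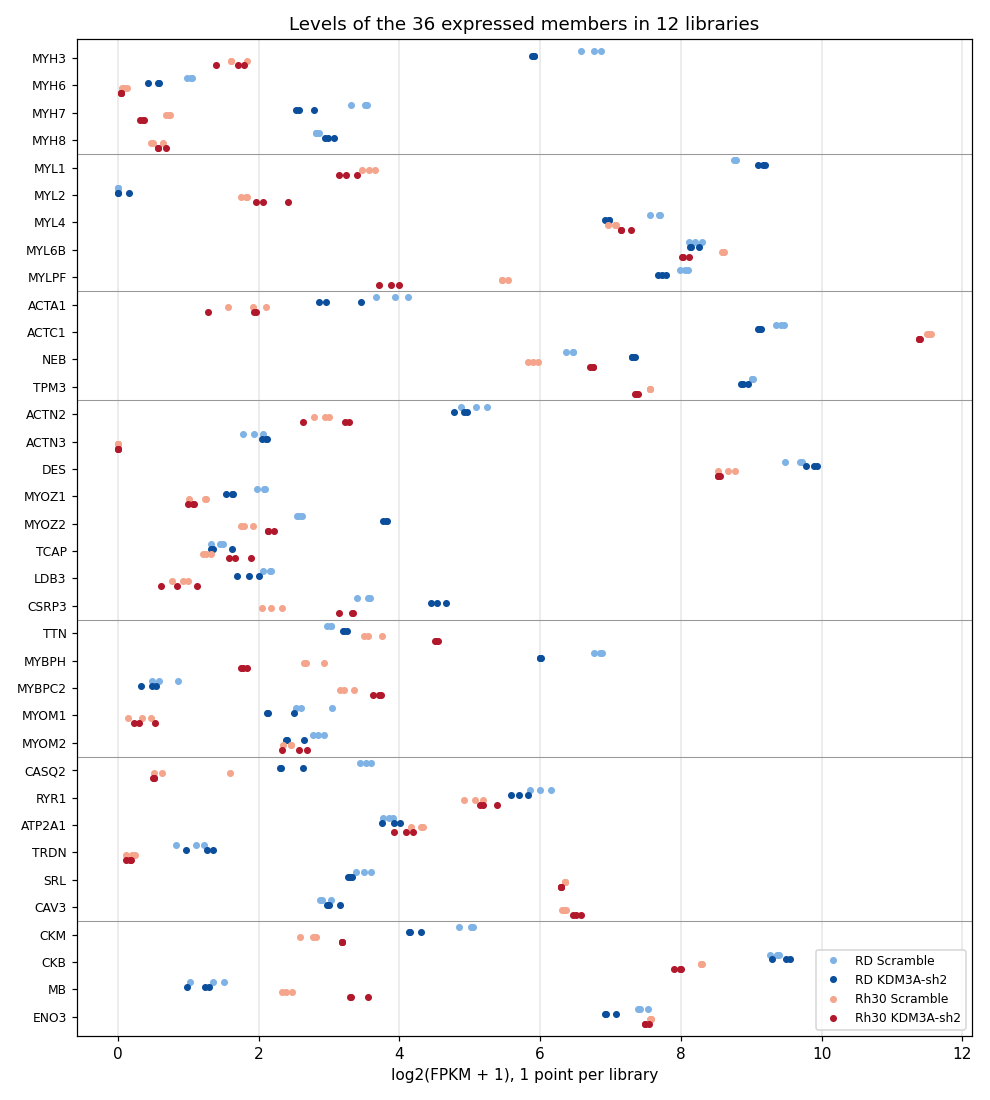
Levels of the 36 expressed members as log2(FPKM + 1) on the horizontal axis, with 1 point per library and 1 colour per group, and with lines that separate the 7 roles. ACTC1 lies farthest to the right in Rh30, and MYH3, MYL1 and MYBPH are far higher in RD than in Rh30.

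KDM3A-sh2 was compared with Scramble with limma on log2(FPKM + 1), leaving out genes whose 6 libraries of a line averaged under 1 FPKM, and the fold changes given below are on this scale, which understates the change of genes of low level. In RD 33 of the 42 members could be tested, of which 6 were higher and 14 lower with KDM3A-sh2. Over all 17988 genes tested in RD 21.6% were higher and 19.5% lower. The 6 are 18.2% of the members tested, near that background, and the 14 are 42.4%, above it. The median change of the members was -0.18, against 0.0067 over all genes. In Rh30 28 members could be tested, of which 9 were higher (32.1%) and 7 lower (25.0%), where 15.3% of all 17803 genes were higher and 13.2% lower, and the median was 0.027, against 0.031 over all genes.

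Members moved in both directions in each line. A change of at least 1.5-fold was found in RD for 3 members that rose, NEB, CSRP3 and MYOZ2, and 7 that fell, MYH3, MYH7, MYL4, ACTA1, MYBPH, CASQ2 and CKM. These are 9.09% and 21.2% of the 33 tested, where 5.06% and 4.79% of all genes rose and fell by as much. The same held in Rh30 for 4 that rose, NEB, CSRP3, TTN and MB, and 2 that fell, MYLPF and MYBPH, which are 14.3% and 7.14% of the 28 tested, beside 3.27% and 3.02% of all genes. Of 26 members tested in both lines, NEB, CSRP3, MYOZ2 and TTN rose in both, and MYBPH, MYLPF, ACTC1 and TPM3 fell in both. Each set of 4 is 15.4% of the 26, where of 15970 genes tested in both lines 6.51% rose and 6.84% fell in both. CKM fell in RD and rose in Rh30, as 1.58% of these genes did, and MYL1 rose in RD and fell in Rh30, as 2.0% did.

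**Figure D2:**
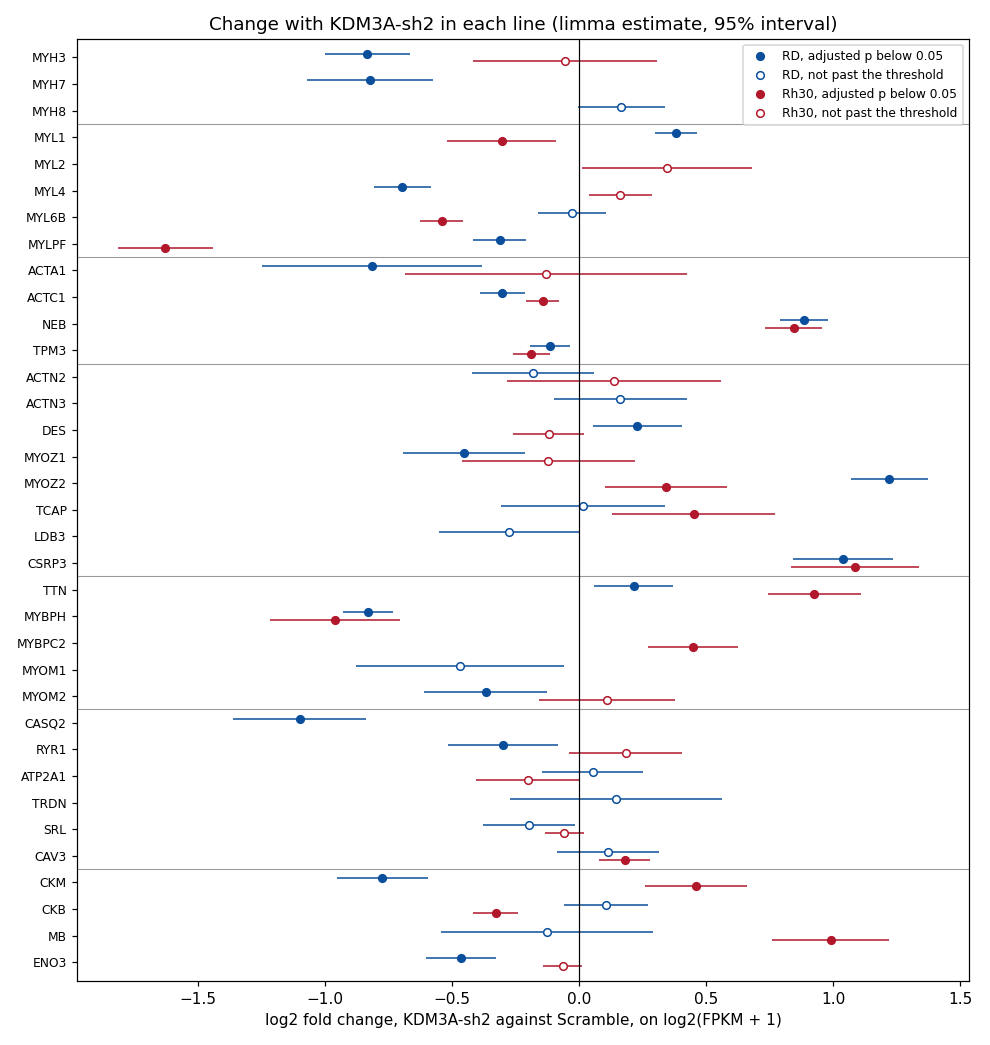
Log2 fold change of KDM3A-sh2 against Scramble on log2(FPKM + 1) for each member tested, blue in RD and red in Rh30, with 95% intervals from limma. Filled points passed an adjusted p of 0.05 and open points did not. NEB and CSRP3 lie to the right and MYBPH to the left in both lines, while CKM lies on opposite sides.

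The effect of KDM3A-sh2 was also compared between the lines, with the interaction of shRNA and line over all 12 libraries. Of 34 members tested, the difference (Rh30 minus RD) was positive and past the threshold for 11 and negative for 6, where 14.4% and 13.4% of all 18517 genes were. A difference of at least 1.5-fold was found for 6 and 3 members (17.6% and 8.82%), beside 4.8% and 4.83% of all genes. With values rescaled to TPM the calls over all genes turned from 2665 positive and 2486 negative to 2061 and 3015, and those of the members to 9 and 7. The positive ones were MYH3, MYH7, MYL4, ACTC1, TTN, MYBPC2, MYOM2, RYR1, CKM, MB and ENO3, and the negative ones MYL1, MYL6B, MYLPF, DES, MYOZ2 and CKB. MYH7, MYH8, MYL2, ACTN3, LDB3, MYBPC2, MYOM1 and CASQ2 averaged under 1 FPKM in both groups of 1 line and entered through the other. On log2(FPKM + 1) the change in the low line is understated, so their differences depend on level. ACTN3, at 0 in all Rh30 libraries, had a difference of -0.16, its RD change of 0.16 with the sign turned.

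The promoters of 6 members are shown, chosen because these members rose in both lines (NEB, MYOZ2), fell in both (MYBPH, ACTC1), moved in opposite directions (CKM) or had the largest drop in RD (CASQ2). Each sequence is the 250 bases before the start of the gene in RefSeq (GRCh38.p14), read 5′ to 3′ on the strand of the gene. Capitals mark E-boxes, CANNTG on either strand, the kind of site that MYOD1 and MYOG bind, and CArG boxes and MEF2 boxes, the kinds bound by SRF and by MEF2 factors. In ACTC1 the longer run of capitals is the CArG box, and in MYOZ2 it is the MEF2 box. NEB lies at chr2:151734477-151734726 (minus strand), MYOZ2 at chr4:119135582-119135831 (plus strand), MYBPH at chr1:203175827-203176076 (minus strand), ACTC1 at chr15:34795550-34795799 (minus strand), CKM at chr19:45322876-45323125 (minus strand) and CASQ2 at chr1:115768715-115768964 (minus strand).
NEB: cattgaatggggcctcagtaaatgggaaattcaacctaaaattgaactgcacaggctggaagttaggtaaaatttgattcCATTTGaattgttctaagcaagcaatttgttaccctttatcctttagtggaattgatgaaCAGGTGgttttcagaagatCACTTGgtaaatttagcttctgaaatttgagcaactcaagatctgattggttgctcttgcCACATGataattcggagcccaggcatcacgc
MYOZ2: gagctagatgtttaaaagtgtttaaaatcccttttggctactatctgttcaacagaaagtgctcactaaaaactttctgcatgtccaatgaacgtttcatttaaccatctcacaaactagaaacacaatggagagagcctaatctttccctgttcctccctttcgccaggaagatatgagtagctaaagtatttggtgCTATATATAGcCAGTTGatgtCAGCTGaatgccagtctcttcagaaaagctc
MYBPH: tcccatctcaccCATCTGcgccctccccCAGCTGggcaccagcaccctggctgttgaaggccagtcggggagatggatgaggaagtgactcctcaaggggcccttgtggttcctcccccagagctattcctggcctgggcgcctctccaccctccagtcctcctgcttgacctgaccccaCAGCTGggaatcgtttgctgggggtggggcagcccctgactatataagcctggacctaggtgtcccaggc
ACTC1: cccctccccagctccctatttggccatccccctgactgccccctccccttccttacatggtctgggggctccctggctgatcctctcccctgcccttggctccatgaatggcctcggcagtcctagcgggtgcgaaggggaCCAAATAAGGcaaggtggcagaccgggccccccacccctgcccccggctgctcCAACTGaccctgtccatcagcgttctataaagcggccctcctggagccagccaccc
CKM: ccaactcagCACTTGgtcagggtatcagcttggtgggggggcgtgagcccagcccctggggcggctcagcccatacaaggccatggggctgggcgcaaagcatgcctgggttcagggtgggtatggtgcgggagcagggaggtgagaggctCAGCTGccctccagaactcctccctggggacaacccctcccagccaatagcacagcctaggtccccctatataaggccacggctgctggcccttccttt
CASQ2: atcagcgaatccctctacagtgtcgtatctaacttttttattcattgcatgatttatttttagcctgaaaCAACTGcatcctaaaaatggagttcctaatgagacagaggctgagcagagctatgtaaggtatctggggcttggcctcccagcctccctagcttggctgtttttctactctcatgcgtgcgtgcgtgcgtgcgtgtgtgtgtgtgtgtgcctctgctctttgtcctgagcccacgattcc

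NEB holds 4 E-boxes, MYBPH 3, MYOZ2 and CKM 2 each, and ACTC1 and CASQ2 1 each. Of these MYBPH has 2 of the form CAGCTG and MYOZ2 and CKM 1 each. RefSeq gave a promoter for 30 of the 42 members. For the 8 of them with more than 1, among them ACTC1, and for all other genes, the first one listed was shown and counted. An E-box was found in 22 of the 30 (73.3%), where 62.2% of 27305 promoters of all genes had one, and CAGCTG in 9 (30.0% against 13.8%). A CArG box was in the promoters of 4 members (ACTA1, ACTC1, LDB3 and MYOM1; 13.3% against 1.14%) and a MEF2 box in 3 (TTN, MYOZ2 and CKB; 10.0% against 0.535%). The letters TATA followed by 2 letters that are each A or T, on the strand of the gene, were in 15 of the 30, against 15.2% of all promoters. In MYOZ2 and CKB these letters lie within the MEF2 box, so the counts of MEF2 boxes and TATA are not separate there. Counted over all promoters of a gene instead, an E-box was found in 23 members (76.7% against 66.7% of all genes), with TPM3 added, and a MEF2 box in 4 (13.3% against 0.641%), with MYL1 added. The counts of members with CAGCTG, a CArG box or TATA were the same by both ways. E-boxes of the form CAGCTG are a subset of CANNTG, and the shares describe the letters in the windows and not bound factors. Members that rose and members that fell both held E-boxes.

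Among the myosin heavy chains, the motors of the thick filament, MYH3 was the main one in RD and fell there. MYH3, the embryonic form, was at 94.5, 108 and 115 FPKM in RD Scramble and at 59.2, 59.1 and 58 FPKM in RD KDM3A-sh2. All 3 KDM3A-sh2 libraries lay below the lowest Scramble library, and the change was -0.83 (SE 0.071, adjusted p = 0.000196), a ratio of means of 0.555. In Rh30 MYH3 was at 2.04 to 2.56 FPKM with Scramble and 1.61 to 2.46 FPKM with KDM3A-sh2, with overlapping groups and a change of -0.056 (95% interval -0.42 to 0.30). The difference between the lines was 0.78 (SE 0.15, adjusted p = 0.00357).

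MYH7, the slow and ventricular form, was at 8.91, 10.4 and 10.7 FPKM in RD Scramble and 4.97, 4.78 and 5.91 FPKM in RD KDM3A-sh2, again without overlap, and changed by -0.82 (SE 0.10, adjusted p = 0.00103). Rh30 levels of MYH7 were under the limit for testing, at 0.597 to 0.673 FPKM with Scramble and 0.244 to 0.288 FPKM with KDM3A-sh2, a ratio of means of 0.424 beside 0.522 in RD. The interaction for MYH7, 0.46 (SE 0.14, adjusted p = 0.0287), depends on the pseudocount, and with 0.1 in place of 1 it was -0.070. Its call was also lost when any 1 of 7 libraries was left out (all but RD Scramble replicate 1, RD KDM3A-sh2 replicate 3, Rh30 Scramble replicates 1 and 2 and Rh30 KDM3A-sh2 replicate 3). MYH8, the perinatal form, did not pass the threshold in RD, with 6.06 to 6.25 FPKM and 6.71 to 7.36 FPKM and a change of 0.17 (95% interval -0.0042 to 0.34, adjusted p = 0.108 by limma). MYH6, the atrial form next to MYH7 in the genome, was at 0.974 to 1.07 FPKM and 0.348 to 0.495 FPKM in RD, under the limit for testing.

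The make-up of the heavy chains in RD differed between the groups, given here as a description. MYH3 made up 85.0% to 85.8% of the summed FPKM of the 7 heavy chains in RD Scramble and 81.1% to 82.0% in RD KDM3A-sh2, while MYH8 went from 4.66% to 5.45% up to 9.38% to 10.2%. The sum itself was 111 to 134 FPKM with Scramble and 71.5 to 72.5 FPKM with KDM3A-sh2. In Rh30 it was 3.46 to 4.15 and 2.87 to 3.63 FPKM, of which MYH3 was 55.3% to 67.6%. MYH1, MYH2, MYH3, MYH4 and MYH8 lie in a row on chromosome 17 (GRCh38, GENCODE 29), from MYH8 at 10390322 to the end of MYH3 at 10657309, and MYH6 (start 23381990) lies beside MYH7 (start 23412738) on chromosome 14. Heavy chains share sequence. Of the stretches of 50 bases in the longest transcript, 20.8% in MYH1, 17.1% in MYH2, 15.3% in MYH6 and 14.5% in MYH7 also occur in another gene, against 3.92% in MYH3 and 8.18% in MYH8. Read length differs between the sources, 50 cycles in the study's methods and 151 bases in the labels. Of stretches of 151 bases 3.20% in MYH1, 1.89% in MYH2, 4.23% in MYH6, 4.13% in MYH7 and 0.713% in MYH8 occur in another gene, and none in MYH3. How reads in such stretches were assigned is not given in the sources used here, which leaves the low values of MYH1, MYH2, MYH4 and MYH6 uncertain.

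**Figure D3:**
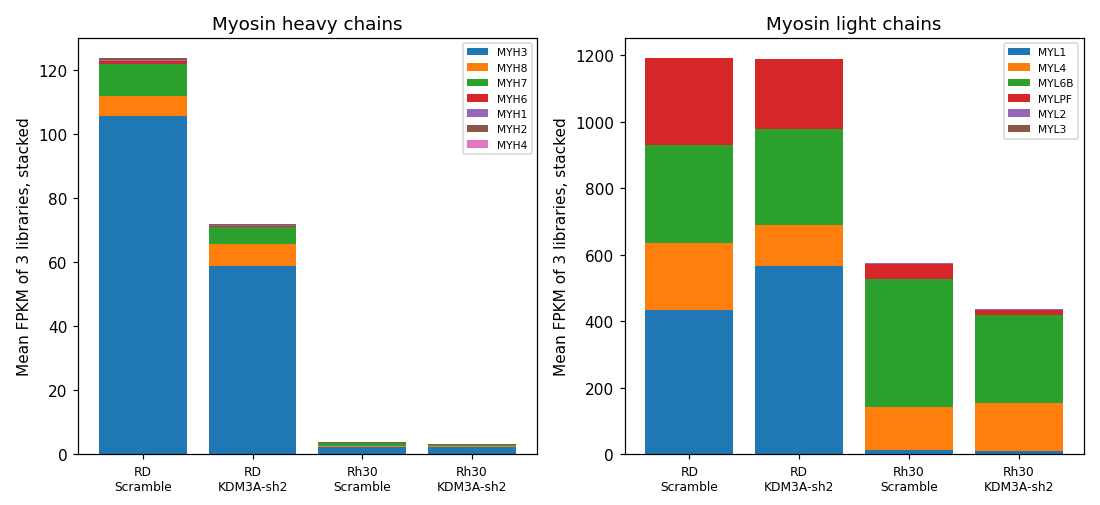
Stacked mean FPKM of 3 libraries in each group for the myosin heavy chains (left) and light chains (right), with vertical axes from 0. MYH3 dominates the heavy chains in RD, heavy chains are nearly lacking in Rh30, and MYL6B is the largest part of the light chains in Rh30.

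Light chains stiffen the neck of myosin and tune its activity, and in RD their sum overlapped between the groups while MYL1 rose and MYL4 fell. The sum over the 6 light chains was 1163 to 1226 FPKM in RD Scramble and 1158 to 1208 FPKM in RD KDM3A-sh2. MYL1, the fast essential light chain, was at 429, 434 and 441 FPKM in RD Scramble and 583, 543 and 574 FPKM in RD KDM3A-sh2 and rose by 0.38 (SE 0.035, adjusted p = 0.000269). MYL4, the embryonic and atrial essential light chain, was at 188, 208 and 206 FPKM and 125, 120.2 and 124 FPKM and changed by -0.70 (SE 0.047, adjusted p = 7.91e-05). The Scramble and KDM3A-sh2 libraries of RD did not overlap for either gene. The share of MYL1 in the light chains went from 35.9% to 36.9% up to 46.9% to 48.3%, and that of MYL4 from 16.2% to 17.5% down to 10.3% to 10.4%.

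In Rh30 MYL1 fell and MYL4 did not pass the threshold. MYL1 was at 11.6, 10.9 and 10.1 FPKM in Rh30 Scramble and 9.55, 8.47 and 7.8 FPKM in Rh30 KDM3A-sh2, a change of -0.31 (SE 0.09, adjusted p = 0.0457). This call was lost when any 1 of the Rh30 libraries other than KDM3A-sh2 replicate 1 was left out. MYL4 was at 133, 124 and 133 FPKM and 141, 155 and 141 FPKM, without overlap but not past the threshold (0.16 (SE 0.052, adjusted p = 0.0594), limma). The interaction passed for both genes, at -0.69 (SE 0.092, adjusted p = 0.00031) for MYL1 and 0.86 (SE 0.072, adjusted p = 1.34e-05) for MYL4.

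MYLPF, the fast regulatory light chain, fell in both lines and more in Rh30. It was at 252, 272 and 266 FPKM in RD Scramble and 221, 212 and 203 FPKM in RD KDM3A-sh2, a change of -0.31 (SE 0.045, adjusted p = 0.00168). In Rh30 it went from 43.1, 45.5 and 43.1 FPKM to 12, 14.9 and 13.7 FPKM, a change of -1.63 (SE 0.078, adjusted p = 8.33e-05) and a ratio of means of 0.309. No library overlapped with the other group in either line, and this was the largest drop among the members tested in Rh30. The difference between the lines was -1.32 (SE 0.092, adjusted p = 4.08e-06) on the log2 scale. On unlogged FPKM the drop was larger in RD, by 21.3 FPKM.

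MYL6B, an essential light chain of slow muscle that other cells also express, fell in Rh30. It was at 391, 382 and 387 FPKM with Scramble and 259, 276 and 261 FPKM with KDM3A-sh2, a change of -0.54 (SE 0.036, adjusted p = 0.000216). In RD its values were 293, 276 and 314 FPKM and 279, 283 and 303 FPKM, which overlap, with a change of -0.029 (95% interval -0.16 to 0.10). The interaction was -0.51 (SE 0.069, adjusted p = 0.000313). MYL6, on the same strand, overlaps 2.73% of the exon bases of MYL6B and an opposite-strand gene 9.57%. MYL2, the slow and ventricular regulatory light chain, could be tested in Rh30 only, at 2.35 to 2.57 FPKM and 2.89 to 4.31 FPKM (0.35 (SE 0.14, adjusted p = 0.111), limma), and was listed at 0 in 5 of the 6 RD libraries. MYL6B made up 67.2% to 67.6% of the light chains in Rh30 Scramble and 60.4% to 61.2% in Rh30 KDM3A-sh2, and MYL4 21.9% to 23.1% and 33.1% to 33.8%.

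In the thin filament, NEB rose in both lines while the actins and TPM3 fell or did not pass. NEB codes for nebulin, the giant protein that runs along the thin filament. Its values were 81.5, 87.5 and 87.1 FPKM in RD Scramble and 157, 157 and 162 FPKM in RD KDM3A-sh2, a change of 0.89 (SE 0.04, adjusted p = 2.06e-05). In Rh30 they were 55.6, 58.4 and 61.6 FPKM and 104, 107 and 107 FPKM, a change of 0.84 (SE 0.047, adjusted p = 0.000122). All KDM3A-sh2 libraries of a line lay above all Scramble libraries. The ratios of means were 1.86 in RD and 1.81 in Rh30, and the difference between the lines was -0.041 (95% interval -0.17 to 0.091). NEB had the lowest adjusted p of all members in RD and kept its call under all alternatives tried in both lines.

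ACTC1, the cardiac actin that developing skeletal muscle also uses, was the most abundant member per length in Rh30. It was at 2894, 3007 and 2957 FPKM in Rh30 Scramble and 2657, 2662 and 2698 FPKM in Rh30 KDM3A-sh2, a small change of -0.14 (SE 0.027, adjusted p = 0.0099). In RD it was at 649.6, 705 and 686 FPKM and 545, 549 and 559.9 FPKM, a change of -0.30 (SE 0.037, adjusted p = 0.000893). The groups did not overlap in either line. The interaction was 0.16 (SE 0.044, adjusted p = 0.0208), and on unlogged FPKM its sign turned (-151 FPKM), so that the drop was larger in Rh30 in FPKM and in RD in proportion. The change in Rh30 was no longer past the threshold without Rh30 KDM3A-sh2 replicate 1, nor was the interaction without Rh30 Scramble replicate 1 or with values rescaled to TPM or by median ratios. On unlogged FPKM the interaction passed with the turned sign (adjusted p = 0.0204, linear model). An opposite-strand gene overlaps 7.98% of the exon bases of ACTC1.

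ACTA1, the actin of adult skeletal muscle, was at 11.7, 14.3 and 16.4 FPKM in RD Scramble and 6.23, 9.97 and 6.78 FPKM in RD KDM3A-sh2 and fell there (-0.82 (SE 0.18, adjusted p = 0.0113)), a call lost with the linear model of unlogged FPKM. In Rh30 it was at 1.94 to 3.29 FPKM and 1.42 to 2.91 FPKM, with overlapping groups and a wide 95% interval of -0.69 to 0.42 around a change of -0.13. ACTC1 made up 97.7% to 98.9% of the summed FPKM of these actins in RD and 99.9% in Rh30. TPM3, the slow tropomyosin that is also made in other cells, was at 520.2, 516 and 513 FPKM and 473, 463 and 495 FPKM in RD, a change of -0.12 (SE 0.033, adjusted p = 0.0309) that was lost when any 1 of the RD libraries other than KDM3A-sh2 replicate 3 was left out. Its Rh30 values were 187, 187 and 187 FPKM and 164, 167 and 161 FPKM, a change of -0.19 (SE 0.03, adjusted p = 0.00552). Of its stretches of 50 bases 8.81% occur in other genes, among them processed copies of TPM3, and of those of 151 bases none.

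At the Z disc, which anchors the thin filaments, CSRP3 and MYOZ2 rose in both lines. CSRP3 codes for muscle LIM protein. It was at 9.49, 10.7 and 11 FPKM in RD Scramble and 24.4, 20.8 and 22.1 FPKM in RD KDM3A-sh2, a change of 1.04 (SE 0.083, adjusted p = 0.00015). Rh30 Scramble held it at 3.14, 3.49 and 4.02 FPKM and Rh30 KDM3A-sh2 at 9.02, 9.11 and 7.8 FPKM, a change of 1.09 (SE 0.11, adjusted p = 0.000797). The groups did not overlap, the ratios of means were 2.16 and 2.43, and the difference between the lines was 0.046 (95% interval -0.25 to 0.34), with a sign that turned under some alternatives.

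MYOZ2 codes for a calsarcin, which ties calcineurin to the Z disc. It had the largest rise of all members in RD, from 5.14, 4.82 and 4.95 FPKM to 13.1, 12.6 and 13.1 FPKM, a change of 1.22 (SE 0.065, adjusted p = 3.32e-05) and a ratio of means of 2.6. Its values in Rh30 were 2.45, 2.34 and 2.78 FPKM and 3.36, 3.64 and 3.4 FPKM, without overlap, a change of 0.34 (SE 0.10, adjusted p = 0.0461) that was lost when any 1 of the 6 libraries was left out. The difference between the lines was -0.88 (SE 0.10, adjusted p = 7.8e-05). Its relative MYOZ1 moved the other way in RD, from 2.94 to 3.26 FPKM to 1.9 to 2.09 FPKM (-0.45 (SE 0.10, adjusted p = 0.0114)), and in Rh30 was at 1.02 to 1.37 and 0.998 to 1.11 FPKM with a change of -0.12 (95% interval -0.46 to 0.22).

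DES codes for desmin, the intermediate filament of muscle, and was the most abundant member per length in RD. It was at 712, 847 and 829.6 FPKM in RD Scramble and 944, 876 and 975 FPKM in RD KDM3A-sh2, a change of 0.23 (SE 0.074, adjusted p = 0.0437) that was lost without replicate 1 or replicate 3 of either group. In Rh30 it was at 369, 435 and 408 FPKM and 369, 369 and 374 FPKM, with a change of -0.12 (95% interval -0.26 to 0.021). The interaction was -0.35 (SE 0.10, adjusted p = 0.0274) and was lost without 1 of 6 libraries in turn, RD KDM3A-sh2 replicates 1 and 3, Rh30 Scramble replicates 2 and 3 and Rh30 KDM3A-sh2 replicates 1 and 2.

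The other Z disc members passed no threshold in RD. ACTN2, the actinin that crosslinks thin filaments, was at 28.3 to 36.8 and 26.3 to 30.2 FPKM in RD and 5.91 to 6.97 and 5.2 to 8.71 FPKM in Rh30, with overlapping groups in both lines. ACTN3 was at 2.43 to 3.18 and 3.12 to 3.33 FPKM in RD. LDB3, a PDZ and LIM protein of the Z disc, was at 3.16 to 3.52 and 2.24 to 3.02 FPKM in RD and under the limit in Rh30. TCAP, the titin cap, was at 1.49 to 1.81 and 1.51 to 2.06 FPKM in RD, and in Rh30 went from 1.32 to 1.49 to 1.99 to 2.72 FPKM (0.45 (SE 0.13, adjusted p = 0.0471)), a call lost when any 1 library was left out.

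**Figure D4:**
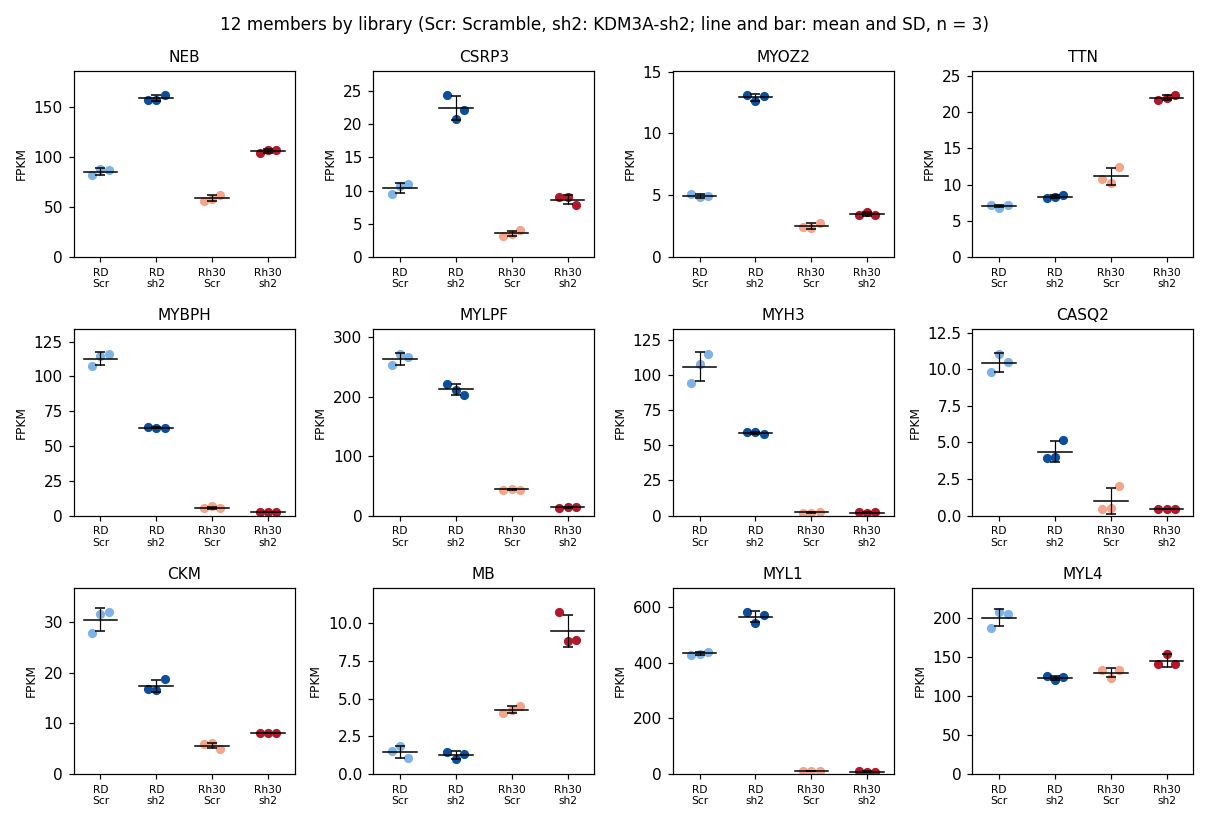
FPKM of 12 members in each library, with 1 point per library, the mean as a line and the SD as a bar, and vertical axes from 0. In both lines the KDM3A-sh2 points of NEB, CSRP3, MYOZ2 and TTN lie above the Scramble points, and those of MYBPH and MYLPF below, while CKM moves in opposite directions.

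TTN, the giant spring that spans from Z disc to M band, rose more in Rh30 than in RD. It was at 10.8, 10.2 and 12.5 FPKM in Rh30 Scramble and 21.8, 22 and 22.4 FPKM in Rh30 KDM3A-sh2, a change of 0.93 (SE 0.077, adjusted p = 0.000428) and a ratio of means of 1.97. In RD it was at 7.15, 6.83 and 7.16 FPKM and 8.15, 8.3 and 8.57 FPKM, a change of 0.21 (SE 0.066, adjusted p = 0.037) that was lost when any 1 of the 6 libraries was left out. The interaction, 0.71 (SE 0.093, adjusted p = 0.000275), kept its call under all alternatives tried. Opposite-strand genes, mainly TTN-AS1, cover 15.5% of the exon bases of TTN. TTN-AS1 was at 11.7 to 14.2 FPKM in RD, above TTN there, and at 0 to 0.541 FPKM in Rh30. The libraries were directional, and whether reads were counted by strand is not given in the sources used here.

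NEB and TTN have very long exons in sum (30567 and 118976 bases), and genes of at least 10000 exon bases were looked at beside them. Of 1571 such genes tested in RD 23.1% were higher and 19.6% lower with KDM3A-sh2, and of 1550 in Rh30 11.7% were higher and 19.7% lower. The part of exon length in the changes of NEB and TTN was not tested.

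MYBPH, myosin-binding protein H of the thick filament, fell in both lines. It was at 107, 115 and 116 FPKM in RD Scramble and 63.4, 62.8 and 62.7 FPKM in RD KDM3A-sh2, a change of -0.83 (SE 0.041, adjusted p = 2.6e-05). The Rh30 libraries held it at 5.39, 6.61 and 5.27 FPKM and 2.57, 2.43 and 2.37 FPKM, a change of -0.96 (SE 0.11, adjusted p = 0.00141). The ratios of means were 0.558 and 0.427, no group overlapped with its control, and the difference between the lines was -0.13 (95% interval -0.35 to 0.088). MYBPC2, fast myosin-binding protein C, rose in Rh30 from 8.28, 9.19 and 7.91 FPKM to 12.3, 12 and 11.4 FPKM (0.45 (SE 0.075, adjusted p = 0.00612)), while in RD it was under the limit, at 0.399 to 0.803 and 0.254 to 0.454 FPKM. Its interaction was 0.64 (SE 0.15, adjusted p = 0.00999).

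The myomesins crosslink thick filaments at the M band. MYOM2 was at 5.84 to 6.57 FPKM in RD Scramble and 4.23 to 5.26 FPKM in RD KDM3A-sh2 and fell by the test (-0.37 (SE 0.10, adjusted p = 0.0258)), a call lost without Scramble replicate 2 or 3 or KDM3A-sh2 replicate 1 or 2. In Rh30 it was at 4.08 to 4.51 and 4.05 to 5.41 FPKM, with overlapping groups, and its interaction was 0.48 (SE 0.15, adjusted p = 0.0326), lost when any 1 of 7 libraries was left out (all but RD Scramble replicate 1, RD KDM3A-sh2 replicate 3, Rh30 Scramble replicates 2 and 3 and Rh30 KDM3A-sh2 replicate 1). A second identifier of MYOM2 was listed at 0 in all 12 libraries. MYOM1 was at 4.76 to 7.2 and 3.35 to 4.66 FPKM in RD and did not pass the threshold (-0.47 (SE 0.17, adjusted p = 0.0683), limma), and was at 0.107 to 0.378 and 0.168 to 0.446 FPKM in Rh30, under the limit.

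In calcium handling, CASQ2 had the largest drop of all members in RD. CASQ2 codes for the calsequestrin of slow and cardiac muscle, the calcium buffer of the sarcoplasmic reticulum. It was at 9.8, 11.1 and 10.5 FPKM in RD Scramble and 3.91, 4 and 5.2 FPKM in RD KDM3A-sh2, a change of -1.10 (SE 0.11, adjusted p = 0.000385) and a ratio of means of 0.418. In Rh30 Scramble it was at 0.43, 0.543 and 2 FPKM, so that 1 library stood apart, and in Rh30 KDM3A-sh2 at 0.416, 0.42 and 0.42 FPKM, under the limit for testing. The interaction did not pass (0.70 (SE 0.32, adjusted p = 0.139), limma).

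RYR1, the calcium release channel of skeletal muscle, was at 56.6, 62.7 and 70.3 FPKM in RD Scramble and 55.5, 50.8 and 47 FPKM in RD KDM3A-sh2. It fell by the test (-0.30 (SE 0.091, adjusted p = 0.0372)), but 1 Scramble library lay close to the KDM3A-sh2 range, and the call was lost without replicate 2 or replicate 3 of either group. In Rh30 it was at 35.4, 32.6 and 29.1 FPKM and 34.2, 35.4 and 41 FPKM, which overlap, with a change of 0.18 (95% interval -0.04 to 0.41), and the interaction was 0.48 (SE 0.14, adjusted p = 0.0276). That call was lost without 1 of 6 libraries in turn, RD Scramble replicates 2 and 3, RD KDM3A-sh2 replicates 2 and 3 and replicate 3 of both Rh30 groups.

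ATP2A1, the calcium pump of fast muscle, passed the threshold in neither line, at 12.6 to 14.1 and 12.5 to 15.1 FPKM in RD and 16.9 to 19.2 and 14.2 to 17.2 FPKM in Rh30. TRDN, triadin, which ties calsequestrin to the release channel, was at 0.773 to 1.32 and 0.959 to 1.56 FPKM in RD and at 0.0846 to 0.179 and 0.0788 to 0.136 FPKM in Rh30. SRL, sarcalumenin, a calcium-binding protein of the reticulum, did not pass in RD (9.39 to 11.1 and 8.6 to 9.05 FPKM) or in Rh30, where the Scramble libraries were at 81, 80.6 and 80.3 FPKM and those of KDM3A-sh2 at 77.5, 77.4 and 77.3 FPKM (95% interval -0.13 to 0.018). CAV3, the caveolin of the muscle membrane, rose by a small amount in Rh30, from 79.8, 78.4 and 81.7 FPKM to 94.6, 90 and 87.6 FPKM (0.18 (SE 0.042, adjusted p = 0.021)), a call lost without replicate 1 or replicate 2 of either group. In RD it was at 6.32 to 7.12 and 6.87 to 7.91 FPKM with a change of 0.11 (95% interval -0.089 to 0.32).

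Among the energy genes CKM moved in opposite directions in the lines. CKM codes for the creatine kinase of muscle, which regenerates ATP beside the filaments. It was at 27.9, 31.5 and 31.9 FPKM in RD Scramble and 16.7, 16.6 and 18.8 FPKM in RD KDM3A-sh2, a change of -0.78 (SE 0.075, adjusted p = 0.000332). Rh30 gave 5.84, 6.03 and 5 FPKM and 8.09, 8.07 and 8.12 FPKM, a change of 0.46 (SE 0.084, adjusted p = 0.00869). Neither line had overlapping groups, and the difference between the lines, 1.24 (SE 0.11, adjusted p = 1.93e-05), was the largest positive one among the members. CKB, the creatine kinase of brain and other tissues, was far more abundant per length, with 95.1% to 97.8% of the summed FPKM of the pair in RD.

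CKB was at 315, 310.3 and 310.3 FPKM in Rh30 Scramble and 256, 252 and 237 FPKM in Rh30 KDM3A-sh2 and fell there (-0.33 (SE 0.037, adjusted p = 0.0015)). In RD it was at 673, 616 and 659 FPKM and 720.3, 748 and 629 FPKM, which overlap, with a change of 0.10 (95% interval -0.06 to 0.27), and the interaction was -0.43 (SE 0.084, adjusted p = 0.00322), a call lost on unlogged FPKM. MB, myoglobin, the oxygen store of muscle, rose in Rh30 from 4.04 to 4.55 FPKM to 8.84 to 10.7 FPKM (0.99 (SE 0.10, adjusted p = 0.000799); ratio of means 2.22), and was at 1.04 to 1.83 and 0.969 to 1.46 FPKM in RD, with overlap. Its interaction was 1.12 (SE 0.19, adjusted p = 0.00145). ENO3, the muscle enolase of glycolysis, fell in RD from 166, 169.6 and 184 FPKM to 134, 122 and 120.2 FPKM (-0.47 (SE 0.059, adjusted p = 0.000995)). Its Rh30 levels were 190.1, 189.9 and 188 FPKM and 178, 186 and 178 FPKM, with a change of -0.065 (95% interval -0.14 to 0.012), and the interaction was 0.40 (SE 0.068, adjusted p = 0.00151).

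The control cells of the 2 lines differed in nearly all members. Of 34 tested between Rh30 Scramble and RD Scramble, 10 were higher in Rh30, 23 were lower, and only TCAP passed in neither direction. Over all 18357 genes 35.0% were higher and 39.6% lower. Of the 34, 8 had a mean under 1 FPKM in 1 of the lines and entered the test through the other. Of the 26 with at least 1 FPKM in both lines 8 were higher in Rh30 (30.8%) and 17 lower (65.4%), where of 15883 such genes 34.8% were higher and 38.1% lower, and the median difference was -0.82, against -0.026 over these genes. The cells also differed in medium, and line and medium cannot be told apart.

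**Figure D5:**
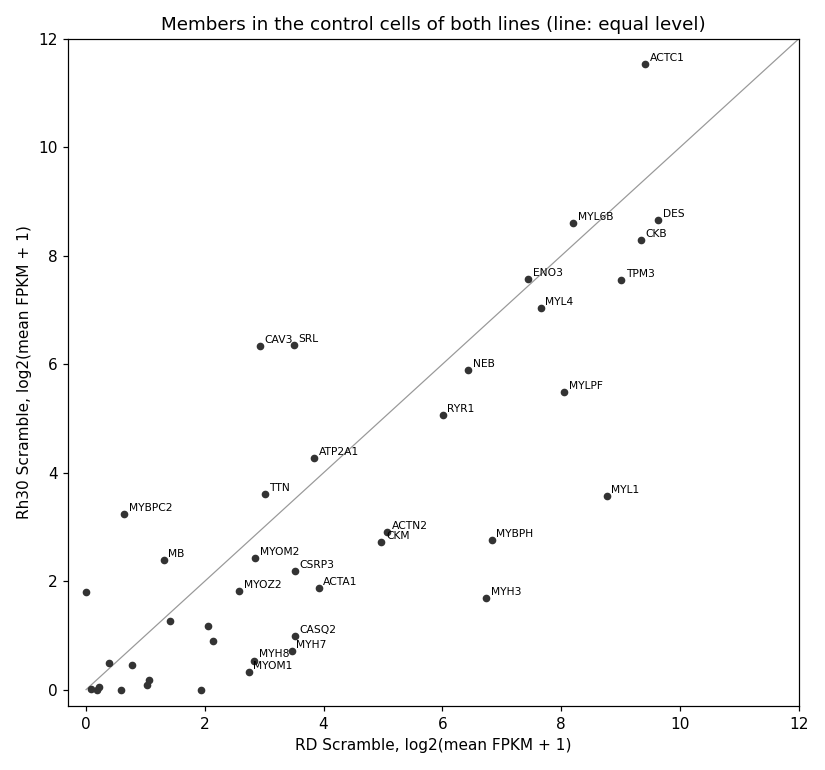
Mean level of the 42 members in RD Scramble (horizontal axis) and Rh30 Scramble (vertical axis), both as log2(mean FPKM + 1), with a line of equal level, and with names for the more abundant members. Most members lie below the line, with MYL1, MYH3 and MYBPH farthest from it, and ACTC1, CAV3 and SRL lie above it.

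The largest differences in favour of Rh30, among members with at least 10 FPKM in 1 of the lines, were CAV3 (3.41 (SE 0.058, adjusted p = 2.18e-08)), SRL (2.86 (SE 0.064, adjusted p = 5.73e-08)) and ACTC1 (2.12 (SE 0.037, adjusted p = 2.46e-08)), all by limma. The ratios of means were 12.1, 7.86 and 4.34. CAV3 was at 6.32, 7.12 and 6.44 FPKM in RD Scramble and SRL at 9.39, 10.3 and 11.1 FPKM, far below the Rh30 values given above. ACTC1 made up 59.4% to 59.8% of the summed FPKM of all 42 members in Rh30 Scramble and 14.7% to 15.3% in RD Scramble. The largest in favour of RD were MYL1 (-5.20 (SE 0.053, adjusted p = 5.05e-09)), MYH3 (-5.05 (SE 0.10, adjusted p = 3.47e-08)) and MYBPH (-4.08 (SE 0.085, adjusted p = 4.32e-08)), with means 40.1, 47.8 and 19.6 times those of Rh30. The lines did not overlap in any of these 6 genes. The filament genes higher in Rh30 were ACTC1, MYL6B, MYL2, TTN and MYBPC2, and the others were CAV3, SRL, ATP2A1, MB and ENO3. The difference of ENO3 was small (0.13 (SE 0.045, adjusted p = 0.0363)) and was lost when any 1 library other than RD Scramble replicate 3 was left out.

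Another list of 77 muscle contraction genes, which includes tropomyosins, sarcomere assembly factors, the dystrophin complex and further calcium and energy genes, was described beside the members. Of these 64 were expressed, 13 were low and none was at 0. In RD 59 were tested, of which 19 were higher and 12 lower (32.2% and 20.3%, median 0.079), beside 21.6% and 19.5% of all genes. In Rh30 51 were tested, with 14 in each direction (27.5% each, median -0.057), beside 15.3% and 13.2% of all genes. In this list 7 genes rose and 6 fell in both lines, 3 rose in RD and fell in Rh30, and 1 did the reverse. Of all 15970 genes tested in both lines these shares were 6.51%, 6.84%, 2.0% and 1.58%. How many genes of the list were tested in both lines was not counted.

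Among genes of this list with at least 10 FPKM in a group of the line, the largest rises in RD were MYL5, a light chain of myosin (means 6.13 and 10.9 FPKM, 0.74 (SE 0.11, adjusted p = 0.00184)), SGCA, alpha-sarcoglycan (193 and 269 FPKM, 0.48 (SE 0.054, adjusted p = 0.000621)), and STAC3, an adaptor of excitation-contraction coupling (153 and 210.2 FPKM, 0.46 (SE 0.04, adjusted p = 0.000227)). The largest drops in RD by the same limit were HSPB3, a small heat shock protein (15.8 and 11.7 FPKM, -0.41 (SE 0.073, adjusted p = 0.00443)), OBSL1, a cytoskeletal adaptor (109 and 87 FPKM, -0.32 (SE 0.046, adjusted p = 0.00169)), and TPM2, a tropomyosin (901 and 746 FPKM, -0.27 (SE 0.033, adjusted p = 0.000821)). In Rh30 the largest rises by this limit were HSPB7, a small heat shock protein (72 and 131 FPKM, 0.85 (SE 0.087, adjusted p = 0.000964)), RYR3, a calcium release channel (12.4 and 21.3 FPKM, 0.74 (SE 0.078, adjusted p = 0.00115)), and PYGM, the muscle glycogen phosphorylase (6.22 and 10.6 FPKM, 0.70 (SE 0.14, adjusted p = 0.0109)). The largest drops in Rh30 were ANKRD1, an ankyrin repeat protein that binds titin (25.6 and 5.96 FPKM, -1.93 (SE 0.074, adjusted p = 5.41e-05)), TPM1, a tropomyosin (279.5 and 92.5 FPKM, -1.59 (SE 0.041, adjusted p = 2.05e-05)), and DYSF, dysferlin, of membrane repair (56.3 and 26.2 FPKM, -1.08 (SE 0.065, adjusted p = 0.000177)). Some genes under this limit, named after their values were seen, changed by more. XIRP1, an actin-binding repeat protein, fell by the test in RD (-0.73 (SE 0.11, adjusted p = 0.00189)), CACNG1, a calcium channel subunit, did too (-0.65 (SE 0.11, adjusted p = 0.00396)), SLN, sarcolipin, an inhibitor of the calcium pump, and XIRP2 rose in RD (0.63 and 0.59), MYL5 rose in Rh30 (0.95 (SE 0.21, adjusted p = 0.0175)), and PVALB, parvalbumin, and XIRP1 fell there (-1.57 and -1.55).

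Markers of other cell types moved with the shRNA as well. The summed FPKM of 8 fibroblast markers was 3266 to 3384 in RD Scramble and 4049 to 4163 in RD KDM3A-sh2, and 47.1 to 56.5 and 63.3 to 68.8 in Rh30. COL3A1, a collagen, made up most of it in RD (means 2889 and 3385 FPKM). Of the list 6 of 7 tested rose in RD and none fell, and 3 of 6 rose in Rh30, where COL1A1 fell (-0.97). Of all genes tested 21.6% rose and 19.5% fell in RD, and 15.3% and 13.2% did in Rh30. The sum of 7 smooth muscle markers was 59.9 to 66.9 and 88.3 to 97.5 in RD, and 71.5 to 77.6 and 69.3 to 72.9 in Rh30. TAGLN, an actin-binding protein, was higher in RD (0.89) and lower in Rh30 (-1.48). SMTN, smoothelin, was lower in RD (-0.48) and higher in Rh30 (0.21). CNN1 was higher in RD (0.84) and ACTA2 lower in Rh30 (-0.51). Of 4 smooth muscle markers tested in each line 2 rose and 1 fell in RD, and 1 rose and 2 fell in Rh30. The sum of 10 cardiac markers was 17.5 to 19.0 and 12.1 to 13.1 in RD, and 39.3 to 43.9 and 37.3 to 39.3 in Rh30. Of 2 cardiac markers tested in RD NKX2-5 fell (-0.57). Of 6 tested in Rh30 NPPA and GATA4 rose (0.79 and 0.49) and NPPB fell (-1.83). Of 5 markers of blood cells and endothelium CD68, a lysosomal protein of macrophages that other cells also make, was at 14.7 to 16.6 FPKM in RD Scramble and 21.9 to 24.1 FPKM in RD KDM3A-sh2 and rose there (0.53), and the sum of the 5 was 15.1 to 17.1 and 22.3 to 24.4 FPKM. In Rh30 the sum was at most 1.90 FPKM. PTPRC, CDH5 and VWF were under 1 FPKM in all libraries. The sum of 4 epithelial markers was 45.4 to 50.7 and 44.6 to 46.1 FPKM in RD, and 11.4 to 12.2 and 11.3 to 13.4 FPKM in Rh30. Neither of the 2 tested in RD passed the threshold, and of 3 tested in Rh30 only KRT18 did, which fell (-0.33). The skeletal lineage markers, which include DES, summed to 1030 to 1184 and 1179 to 1270 FPKM in RD and to 1763 to 1975 and 2327 to 2354 FPKM in Rh30. DES, itself a member, made up most of the sum in RD (means 796 and 932 FPKM). Of 4 lineage markers tested in each line 2 rose and 2 fell in RD, and 2 rose and none fell in Rh30. The part of these movements in the changes of the members was not tested, and in bulk RNA fewer cells that express a gene and less of its RNA per cell cannot be told apart.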

How the data were processed

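Expression was measured by mRNA sequencing in 12 libraries of RD and Rh30 cells, 3 for each line and shRNA, grouped by the sample labels. The authors aligned reads to GRCh38 with GSNAP, used SAMtools and computed FPKM with Cufflinks. The deposited table holds these FPKM without a log. The annotation release and strand setting are not given in the sources used here. It has 66095 entries for 65975 identifiers, and of the entries of the 117 repeated identifiers those with the highest mean were used. The value 999999999, found in 17 genes, none of them a member, was read as missing.

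The test was limma 3.58.1 (R 4.3.3), lmFit and eBayes with a trend, on log2(FPKM + 1), leaving out genes that averaged under 1 FPKM in the libraries compared. Two-sided p-values were adjusted by Benjamini-Hochberg over all genes tested, and the threshold was 0.05. A linear model of each gene on unlogged FPKM was an alternative. The authors report an ANOVA of FPKM, and whether the values were logged is not stated. Within each group the correlation of log2(FPKM + 1) across genes between libraries was 0.9937 to 0.9947, and in Rh30 Scramble 0.9942 to 0.9943. An exact permutation test of 3 against 3 libraries cannot go below 0.1 and was not used. The fit was tested on simulated data with 200 changed genes. The members and lists were chosen with earlier results of these data known. All members were accounted for, and values of each library were given for those with at least 10 FPKM in 1 group that passed a test with KDM3A-sh2, and for the 3 largest differences between control cells in each direction. Of the other 77 genes, the 3 largest rises and drops in each line with at least 10 FPKM were named. Alternatives were a pseudocount of 0.1, no filter, a filter of 10 FPKM in 1 library, values rescaled to TPM or by median ratios, the unlogged model, a further 1.5-fold requirement, each library left out and a replicate block. Positions and shared sequence are from GENCODE 29, promoters from RefSeq. MYMK, 1 of the lineage markers, was not found in the table under that name. Summaries were computed with Python 3.11.15, pandas 2.3.3 and NumPy 2.4.6, and plots with matplotlib 3.10.9.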

Additional observations from a re-analysis of the deposited data

Results flagged for a closer look

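The effect of KDM3A-sh2 differed between the lines for 17 of the 34 members tested, by the interaction of shRNA and line (limma, adjusted p below 0.05 over all genes tested, which 14.4% of all genes passed with a positive and 13.4% with a negative difference, difference given as Rh30 minus RD on the log2(FPKM + 1) scale). For 2 of them the changes had opposite signs and each passed in its own line: CKM, which fell in RD and rose in Rh30 (1.24), and MYL1, which rose in RD and fell in Rh30 (-0.686). For 6 the change passed in RD and not in Rh30: MYH3 (0.778), MYL4 (0.857), ENO3 (0.400), RYR1 (0.482), MYOM2 (0.479) and DES (-0.349). For 3 it passed in Rh30 and not in RD: MB (1.12), MYL6B (-0.513) and CKB (-0.433). MYLPF (-1.32) and ACTC1 (0.159) fell in both lines, and MYOZ2 (-0.880) and TTN (0.711) rose in both, by different amounts. MYH7 (0.455) could be tested in RD only and MYBPC2 (0.640) in Rh30 only, since the other line was under the limit of 1 FPKM. On this scale the change in that other line is understated. KDM3A itself fell less in Rh30 than in RD (difference 0.37, SE 0.12, adjusted p = 0.0388, limma). Each line stands for 1 subtype, and line, subtype, medium and depth of the knockdown cannot be told apart.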

How the results depend on the processing

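The counts of members called stayed within 1.5 times in each direction under all alternatives except a further 1.5-fold requirement, which left 3 higher and 7 lower in RD, 4 higher and 2 lower in Rh30, and 6 positive and 3 negative differences between the lines. Over all genes this requirement left 910 higher and 862 lower of 17988, 582 and 538 of 17803, and 889 and 894 of 18517. Without 1 library at a time they were 4 to 5 higher and 11 to 15 lower in RD, 6 to 7 in each direction in Rh30, 8 to 12 and 5 to 6 for the difference, and 8 to 10 and 23 for the control cells. Over all genes Rh30 gave 2719 higher and 2347 lower calls, 1621 and 1594 without KDM3A-sh2 replicate 1, and 1759 and 1691 without KDM3A-sh2 replicate 2. A TPM scale moved the median difference of all genes between the control cells from -0.039 to -0.14.

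Signs turned for some small changes. In RD MYL6B was 0.0051 on the TPM scale and 0.018 without Scramble replicate 3. With 1 RD library left out TCAP ran from -0.078 to 0.066, below 0 without Scramble replicate 1 (-0.036) or KDM3A-sh2 replicate 1, and ATP2A1 from -0.0038 (without KDM3A-sh2 replicate 1) to 0.12. In Rh30 MYH3 was 0.020 without Scramble replicate 3 and 0.064 without KDM3A-sh2 replicate 2, and ACTA1 ran from -0.28 to 0.094 (without KDM3A-sh2 replicate 3). The difference between the lines turned for MYH7 with a pseudocount of 0.1 (-0.070), and for CSRP3 on the TPM scale (-0.019), without RD KDM3A-sh2 replicate 2 (-0.0050) and without Rh30 Scramble replicate 1 (-0.020). Over all alternatives on the log2 scale the highest value for CSRP3 was 0.16. On unlogged FPKM the difference between the lines turned for MYLPF (21.3), ACTC1 (-151), TPM3 (16.4), CSRP3 (-6.95), MYBPH (46.6) and SRL (-1.80), a scale on which the line with the higher level weighs more. By the linear model on that scale the turned difference passed the threshold for MYBPH (adjusted p = 1.36e-05), CSRP3 (0.00406), ACTC1 (0.0204) and SRL (0.039), and not for MYLPF and TPM3.

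The linear model of unlogged FPKM lost the calls of ACTA1, DES and RYR1 in RD, of MYL1 and TCAP in Rh30 and of CKB, DES, MYLPF and RYR1 for the difference between the lines. By that model the difference of ACTC1 passed with the opposite sign. The TPM scale lost the calls of TPM3 in RD, MYOZ2 and TCAP in Rh30 and ACTC1 and MYOM2 for the difference. Without a filter, where more genes were tested, DES, MYOM2, RYR1, TPM3 and TTN in RD, ACTC1, MYL1, MYOZ2 and TCAP in Rh30 and DES, MYH7, MYOM2 and RYR1 for the difference were no longer past the threshold. The difference of ENO3 between the control cells was lost under all 3 of these. Calls were also gained. Among members not past the threshold in the main test, 5 in RD, 3 in Rh30 and 11 for the difference passed under some alternative with the same sign.

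Samples with the same replicate number did not deviate together (correlations of -0.074 to -0.0093), and no sample correlated best with its own number. With a replicate block 4 members were higher and 12 lower in RD, 6 and 7 in Rh30, 9 and 5 for the difference and 9 and 23 for the control cells. Over all genes the block gave 1798 higher and 1623 lower calls in Rh30. The depth of the libraries in reads is unknown, and no lower limit of detection can be given for the low members.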
